A study of Homo sapiens with 6 samples.

Results

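The genes described here are the 65 protein-coding genes, of 58735 rows in the deposited gene table, whose names begin with HNRNP or with RBM and a digit, leaving out names that begin with RBMX or RBMY. They comprise 27 heterogeneous nuclear ribonucleoprotein (hnRNP) genes and 38 RNA-binding motif (RBM) genes, and the choice used names alone, no measured value. Their mRNA was measured by RNA-seq in 6 libraries of the human line RPE-1, derived from retinal pigment epithelium, whose cells carried CETN2 tagged with GFP as a mark of centrioles and a PLK4 gene under an rtTA-driven, doxycycline-inducible promoter. In 3 libraries the cells had received an siRNA against SON (siSON) and in 3 a scramble siRNA (siControl), and 1 µg/mL doxycycline switched on PLK4, a kinase needed for centrioles to duplicate, in both groups. The groups therefore differed in the siRNA alone, and every value below is from cells with PLK4 induced. The labels number the libraries of each group from 1 to 3 without saying whether they came from separate cultures, so p-values measure the spread between these libraries, which may be technical.

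SON is a large protein of nuclear speckles that is needed for efficient splicing of many introns with weak splice sites. The hnRNP proteins coat nascent pre-mRNA, and many of them block or steer splice site choice, with further roles in mRNA export, stability and translation. The RBM name is given to proteins with RNA recognition motifs and joins unlike functions: core or accessory spliceosome proteins, regulators of alternative splicing, adaptors of RNA methylation, nucleolar proteins of ribosome assembly and cold-induced proteins. Several hnRNP and RBM genes are known to regulate their own mRNA or that of a paralog through splicing, which gene-level counts do not show. The comparison asked how the abundance of these mRNAs differed when SON was depleted.

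Library totals ran from 54572365 to 69764836 counts, and 3 counts, the smallest level taken as visible, corresponded to 0.0430 to 0.0550 CPM (counts scaled to a fixed library total; all other CPM values also carry the TMM factors explained below), which covers counting error only. SON itself measured 295, 313 and 284 CPM in siControl and 68, 69.958 and 65 CPM in siSON, so 22.8% remained. The line check gave high KRT8, KRT18, VIM, CDH2 and FN1 and KRT19 near 0. The pigment genes TYR and TYRP1 and the visual cycle genes RPE65 and RLBP1 were at or near 0 in all 6 libraries, while MITF and OTX2 were present. Summed markers of blood, endothelium and muscle stayed at or below 2.59 CPM in every library, and the neuronal genes RBFOX3, ELAVL4 and STMN2 were at 0 in all 6. Of the 5 neuronal genes listed, SNAP25 (called higher, 5.05 ± 0.751 to 9.11 ± 0.907 CPM) and TUBB3 (called lower, 9.51 ± 0.647 to 4.81 ± 0.385 CPM) were present, and the list summed to 12.8 to 16.1 CPM. The pigment epithelium list of 11 genes went both ways. Its sum was 55.7 to 58.5 CPM in siControl and 74.9 to 84.0 CPM in siSON, most of it from BEST1, MITF and OTX2, which were called higher, while RDH5, PMEL, LRAT and SERPINF1 were called lower, with 8.33%, 9.71%, 16% and 41.1% remaining. The 4 blood genes summed to 1.86 to 2.59 and 0.407 to 0.465 CPM; the part of these lists in the results below was not tested. Replicate 1 stood apart from replicates 2 and 3 in both groups: within a group, pairs of libraries that included it had a chi-square, divided by its degrees of freedom, between 18.9 and 26.3, against 7.21 and 7.31 for replicates 2 and 3. Values without replicate 1 of both groups are given where they change the call of a gene described. Effects of cell number and of RNA per cell cannot be told apart in these bulk libraries.

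Of the 65 genes, 58 had enough counts to be tested (22 hnRNP and 36 RBM). In edgeR's quasi-likelihood test with Benjamini-Hochberg adjustment over all 16591 genes tested, 43 of the 58 passed an adjusted p of 0.05 and are called changed here, 30 higher and 13 lower in siSON. Among all genes tested 71.7% were called, 35.2% higher and 36.5% lower, so the share of hnRNP and RBM genes called lay near the background, at 74.1%. Of the 13008 protein-coding genes tested, 77.4% were called (5242 higher and 4830 lower), a little above that share. The median absolute log2 fold change (siSON over siControl throughout, also where a value stands alone in parentheses or before an adjusted p) was 0.33, against 0.63 for all genes tested. It was 0.22 for the hnRNP genes and 0.52 for the RBM genes. Protein-coding genes with levels between the lower and upper quartiles of the 58 had 0.52. That range was set by all 58 genes together and is not matched to the hnRNP genes, which hold the highest levels. The hnRNP genes were not compared with genes of their own level. A change of at least 2-fold was reached by 5 of the 58, RBM3, RBM19 and RBM14 upward and HNRNPUL2 and RBM24 downward, while 29.3% of all genes tested changed that much, 8.72% upward and 20.5% downward. Of the 6179 protein-coding genes between those quartiles of level, 522 were called at least 2-fold higher and 626 at least 2-fold lower. The siSON values lay wholly above siControl for 32 of the genes and wholly below for 13, and the groups overlapped for 13; for all genes tested, 75.1% had groups that did not overlap.

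**Figure D1:**
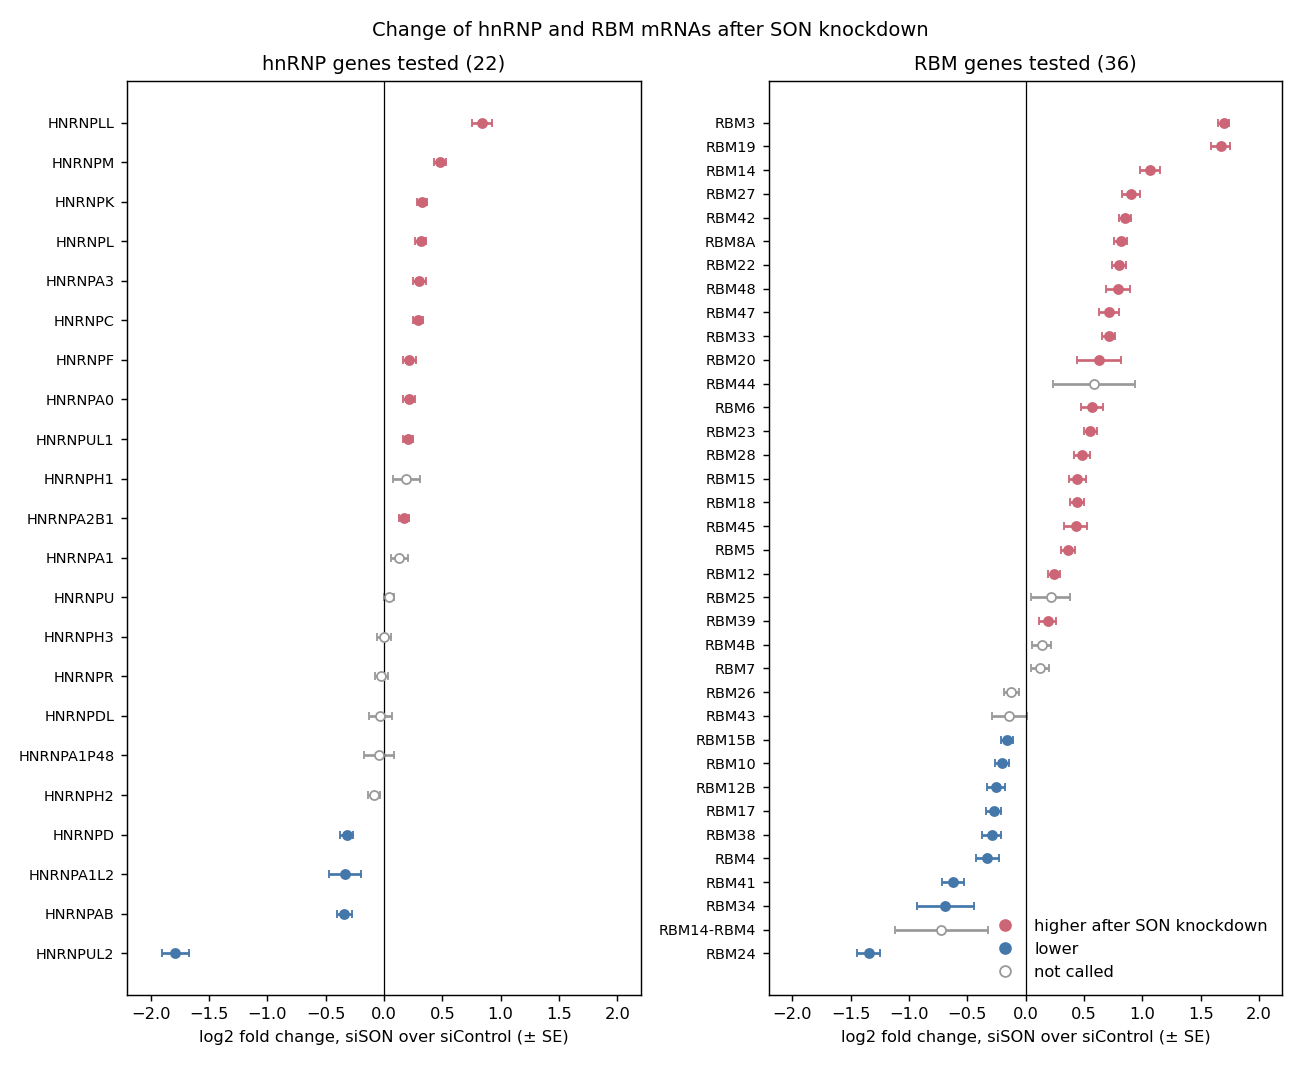
Log2 fold change with its standard error (x axis, siSON over siControl) for the 22 hnRNP genes (left) and 36 RBM genes (right) tested, ordered by size; filled points passed an adjusted p of 0.05. RBM3 and RBM19 reach 1.70 and 1.67 and HNRNPUL2 and RBM24 fall to -1.79 and -1.35, while the hnRNP genes from HNRNPM down to HNRNPAB lie within 0.48 of 0 with signs that for many of them turn with the scaling of the libraries.

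The direction of the hnRNP genes depended on how the libraries were scaled. With trimmed mean of M values (TMM) scaling, the choice used throughout, 10 hnRNP genes were higher and 4 lower, but with library size alone 3 were higher and 9 lower, and with cyclic loess 2 were higher and 12 lower. The hnRNP median moved accordingly, from 0.15 to -0.04 and -0.18. The RBM genes kept a surplus of higher calls under each scaling, at 20 higher and 9 lower with TMM, 16 and 10 with library size alone, and 18 and 8 with cyclic loess, and their median was 0.40, 0.20 and 0.26. Among all genes 5834 were called higher and 6054 lower with TMM, 4441 and 7351 with library size alone, and 6044 and 5640 with cyclic loess. The log2 fold change of a gene moved, in the median over all genes, by -0.20 with library size alone and by 0.14 with cyclic loess relative to TMM. Against the TMM median of all genes, -0.03, the 58 genes had a median of 0.21; protein-coding genes with levels between the lower and upper quartiles of theirs, 6179 genes of which 81.8% were called (3187 higher and 1866 lower), had a median of 0.20. Under all 3 scalings 17 of the 58 genes were called higher and 10 lower. The share of all genes called under all 3 was not determined, so these counts have no background beside them. The higher ones were HNRNPLL and HNRNPM, with RBM3, RBM6, RBM8A, RBM14, RBM15, RBM18, RBM19, RBM22, RBM23, RBM27, RBM28, RBM33, RBM42, RBM47 and RBM48. The lower ones were HNRNPUL2, HNRNPAB and HNRNPD, with RBM10, RBM12B, RBM15B, RBM17, RBM24, RBM38 and RBM41. The set of genes changed at least 2-fold also depended on the scaling. RBM14 left it with library size alone and with cyclic loess, and RBM27 and RBM44 entered it with cyclic loess (1.01 and 1.11).

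**Figure D2:**
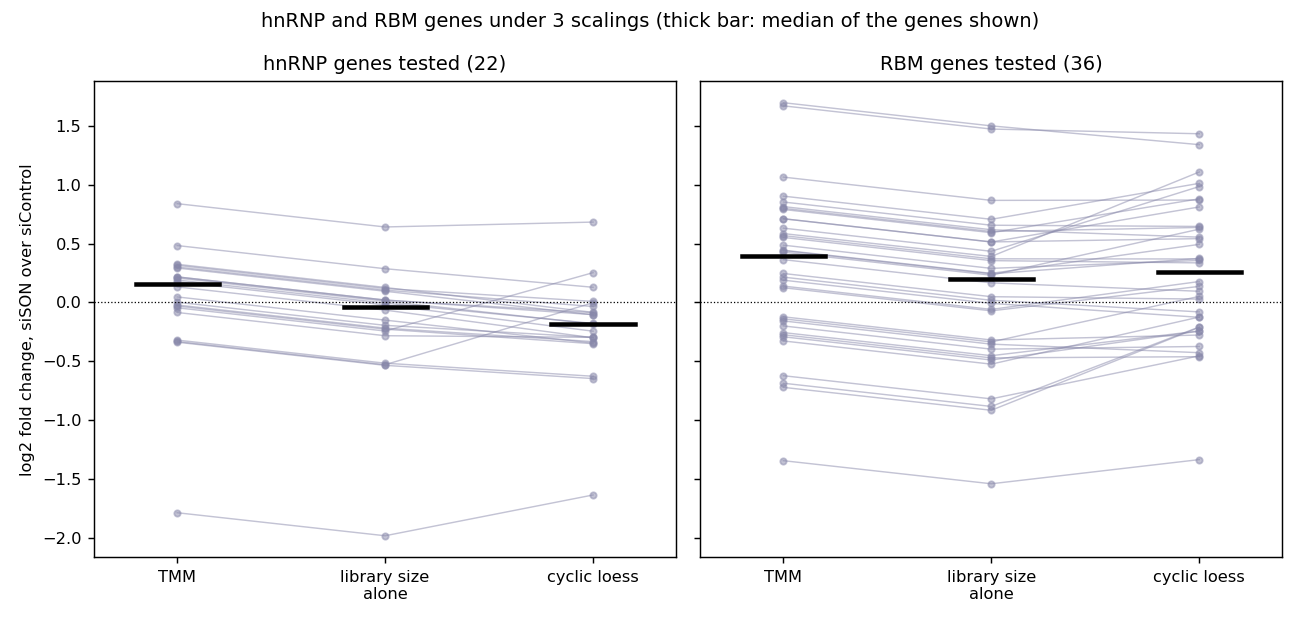
Log2 fold change (y axis, siSON over siControl) of each hnRNP gene (left) and RBM gene (right) tested under 3 scalings of the libraries, with 1 line per gene and a thick bar at the median. The hnRNP median passes from 0.15 with TMM to -0.04 with library size alone and -0.18 with cyclic loess, while the RBM median stays above 0 at 0.40, 0.20 and 0.26.

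Levels were compared between genes as CPM per kilobase of exon. In siControl the highest were HNRNPA1 at 167 ± 11.1, HNRNPK at 111 ± 2.32, HNRNPAB at 94.3 ± 1.99, HNRNPA2B1 at 76.5 ± 0.922 and HNRNPUL1 at 69.3 ± 1.42 CPM per kb (mean ± SD, n = 3 as in all such values). In siSON HNRNPA1 was still first at 183 ± 16.8, and RBM3 moved from 46.8 ± 0.959 to 152 ± 2.17 CPM per kb, above HNRNPK at 139 ± 2.98. Next among the RBM genes in siControl came RBM42 at 26.3 ± 0.351, RBM15B at 20.4 ± 0.554, RBM10 at 17.2 ± 0.365 and RBM8A at 16.1 ± 1.01 CPM per kb. The summed level of the 27 hnRNP genes was 6073 ± 197 CPM in siControl and 6811 ± 172 CPM in siSON with TMM scaling. As a share of all counts, with no scaling factor, they took 0.640% to 0.668% in siControl and 0.619% to 0.647% in siSON. These ranges overlapped, so the rise of the sum with TMM scaling was not seen there. The 38 RBM genes went from 1786 ± 47.1 to 2667 ± 110 CPM, and from 0.187% to 0.195% of counts in siControl to 0.240% to 0.258% in siSON. RBM3 and RBM19 made up much of that rise: without both the RBM sum in siSON was 124% of siControl, against 149% with them.

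**Figure D3:**
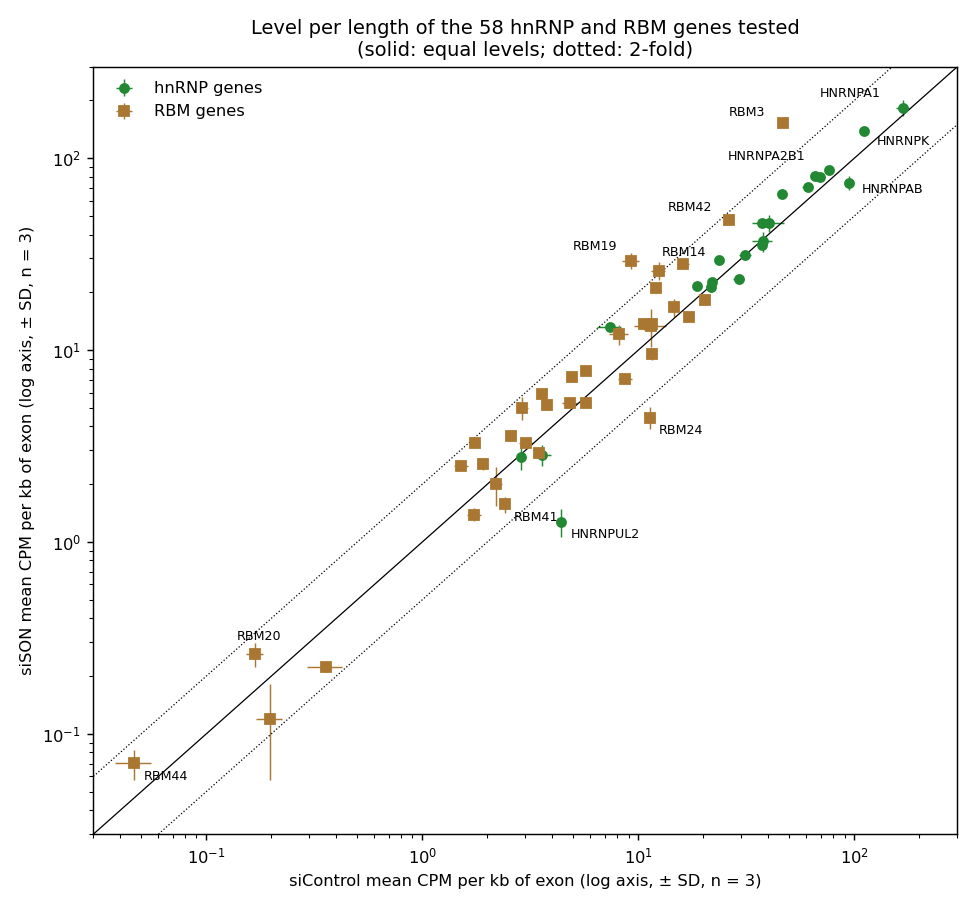
Mean level per kilobase of exon (CPM per kb, log axes, ± SD, n = 3) of the 58 genes tested in siControl (x axis) and siSON (y axis); the solid line marks equal levels and the dotted lines a 2-fold change. RBM3, RBM19 and RBM14 lie above the upper dotted line and RBM24 and HNRNPUL2 below the lower one, and most hnRNP genes (circles), which hold the highest levels, lie close to the solid line with TMM scaling.

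The A/B hnRNP proteins, which carry paired RNA recognition motifs and a glycine-rich tail, showed small differences whose sign depended on the scaling. HNRNPA1, an abundant splicing repressor, measured 915, 806 and 834 CPM in siControl and 1027, 911 and 860.2 CPM in siSON, and the groups overlapped (log2 fold change 0.13, SE 0.070, adjusted p = 0.115). It was called higher without siSON replicate 3 (0.20, adjusted p = 0.0325) and lower with cyclic loess (-0.30, adjusted p = 0.00178). HNRNPA2B1 measured 717, 710.2 and 699.7 CPM in siControl and 800.1, 817 and 784 CPM in siSON, with every siSON library above siControl, and was called higher with TMM (log2 fold change 0.18, SE 0.043, adjusted p = 0.00352) but lower with cyclic loess (-0.24, adjusted p = 3.44e-04). HNRNPA3 at 0.30 and the intronless HNRNPA0 at 0.22 were also called higher with TMM and not under either other scaling.

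HNRNPAB and HNRNPD fell under each scaling. HNRNPAB, which binds the same kinds of RNA as the A/B proteins, measured 205, 197 and 204 CPM in siControl and 148, 158 and 174 CPM in siSON (log2 fold change -0.34, SE 0.062, adjusted p = 4.85e-04). HNRNPD, also called AUF1 and known for binding AU-rich elements of unstable mRNAs, measured 215, 202 and 193 CPM in siControl and 164, 171 and 154 CPM in siSON (log2 fold change -0.32, SE 0.059, adjusted p = 5.05e-04). All 3 siSON libraries lay below all 3 siControl libraries for both genes, with 79.1% and 80.1% of the siControl level remaining. HNRNPDL, a close relative of HNRNPD whose gene lies 48060 bases away on chromosome 4, measured 230.5, 201 and 187 CPM in siControl and 219.6, 211 and 174 CPM in siSON and was not called with TMM (-0.031, adjusted p = 0.784). It was called lower with library size alone (-0.23, adjusted p = 0.0491) and with cyclic loess (-0.35, adjusted p = 0.00825). Replicate 1 was the highest of its group for HNRNPDL in both groups.

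HNRNPA1L2, a single-exon gene on chromosome 13, is a near copy of HNRNPA1, with 98.4% of 960 aligned coding bases identical. HNRNPA1L2 measured 5.47, 4.69 and 4.60 CPM in siControl and 4.46, 3.66 and 3.58 CPM in siSON, and its call as lower was at the threshold (log2 fold change -0.33, SE 0.14, adjusted p = 0.0498). It lost that call under 9 of 15 alternatives, among them cyclic loess (-0.0029, adjusted p = 0.986), the omission of siControl replicate 1 (-0.27, adjusted p = 0.127) and of siControl replicates 2 or 3 or siSON replicates 2 or 3 (adjusted p = 0.0610, 0.0526, 0.151 and 0.163). A further copy, HNRNPA1P48, is annotated as protein-coding and shares 99.3% of 825 aligned bases with HNRNPA1. It measured 5.69, 5.51 and 5.35 CPM in siControl and 6.20, 5.10 and 4.70 CPM in siSON and was not called (-0.046, adjusted p = 0.762). How reads that fit several copies were counted is not given in the sources used here, so the split of reads among these 3 genes is uncertain.

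HNRNPC, HNRNPK, HNRNPL and HNRNPM bind uridine tracts, poly(C), CA repeats and GU-rich RNA. HNRNPM was called higher under every scaling, with 269.5, 249 and 262 CPM in siControl and 355, 358 and 378 CPM in siSON (log2 fold change 0.48, SE 0.051, adjusted p = 5.78e-06). HNRNPK measured 575, 553 and 571 CPM in siControl and 724, 694 and 709 CPM in siSON (log2 fold change 0.32, SE 0.044, adjusted p = 5.10e-05). HNRNPC measured 481, 475 and 492 CPM in siControl and 615, 579 and 579 CPM in siSON (log2 fold change 0.29, SE 0.046, adjusted p = 1.61e-04). For both the siSON libraries lay wholly above siControl with TMM, but under cyclic loess HNRNPK had -0.085 (adjusted p = 0.0715) and HNRNPC turned to -0.11 (adjusted p = 0.0449), and HNRNPC was not called with library size alone (0.095, adjusted p = 0.0742). HNRNPL measured 158, 167 and 160.3 CPM in siControl and 199.99, 205 and 199 CPM in siSON (0.31, adjusted p = 1.22e-04), a call not made with library size alone or cyclic loess.

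HNRNPLL, the paralog of HNRNPL known for steering exon choice in lymphocytes, had the largest rise of any hnRNP gene tested under TMM. It measured 37.5, 46.3 and 47.4 CPM in siControl and 77.6, 74.7 and 82.3 CPM in siSON, a 1.79-fold difference (log2 fold change 0.84, SE 0.087, adjusted p = 5.50e-06). Its siControl replicate 1 lay below the other siControl libraries, and without replicate 1 of both groups the log2 fold change was 0.72 (adjusted p = 7.00e-09).

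Of the H/F group, which binds G-rich sequence, HNRNPF was called higher with TMM and under neither library size alone nor cyclic loess (0.22, adjusted p = 0.00465). HNRNPH1 measured 453, 365 and 329 CPM in siControl and 473, 449 and 386 CPM in siSON. Its groups overlapped, replicate 1 was highest in each, and the test did not call it (log2 fold change 0.19, SE 0.12, adjusted p = 0.172). Without siControl replicate 1 it was called at 0.30 (adjusted p = 0.00895), and without replicate 1 of both groups at 0.24 (adjusted p = 0.00916). HNRNPH2, on the X chromosome and inside the readthrough gene RPL36A-HNRNPH2, measured 80.1, 83.6 and 84.4 CPM in siControl and 81.1, 77.1 and 75.6 CPM in siSON (-0.086, adjusted p = 0.183). It was not called with TMM, but it was called lower with library size alone, with cyclic loess and without replicate 1 of both groups (for the last, -0.16, adjusted p = 0.0110). HNRNPH3 at 0.0016 (adjusted p = 0.982) and HNRNPR, the paralog of SYNCRIP, at -0.022 (adjusted p = 0.723) were not called with TMM. Both were called lower with library size alone (-0.20 and -0.22) and with cyclic loess (-0.30 and -0.33).

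HNRNPUL2 had the largest fall of the 58 genes. Its protein belongs to the HNRNPU group, whose members bind RNA and chromatin, and it takes part in the response to DNA breaks with HNRNPUL1. HNRNPUL2 (ENSG00000214753, chromosome 11, 62712630 to 62727472, GRCh38, 14 exons) measured 24.1, 22.6 and 24.7 CPM in siControl and 5.70, 8.03 and 6.98 CPM in siSON. Every siSON library lay below every siControl library, and 29% of the siControl level remained (log2 fold change -1.79, SE 0.12, adjusted p = 1.31e-07). The readthrough gene HNRNPUL2-BSCL2 overlaps nearly all of it on the same strand and held only 3 to 13 counts per library. How reads of this overlap were counted is not given in the sources used here, so the HNRNPUL2 count is uncertain. HNRNPUL1 measured 462, 444 and 456 CPM in siControl and 534, 509.6 and 527 CPM in siSON, higher with TMM (0.21, adjusted p = 0.00156), not called with library size alone (0.010, adjusted p = 0.839) and lower with cyclic loess (-0.18, adjusted p = 0.00182). HNRNPU, which binds nuclear scaffold regions, measured 491, 490.3 and 494 CPM in siControl and 504, 508 and 511 CPM in siSON and was not called with TMM (log2 fold change 0.046, SE 0.042, adjusted p = 0.346), but was called lower with library size alone and with cyclic loess (-0.15 and -0.35). The first 90 coding bases of HNRNPUL1 and HNRNPUL2 (GENCODE release 29) are shown because these paralogs moved farthest apart of the hnRNP pairs compared; capitals mark the 22 bases at which HNRNPUL2 differs, and over the whole coding sequence 62.2% of 2123 aligned bases are identical.
HNRNPUL1: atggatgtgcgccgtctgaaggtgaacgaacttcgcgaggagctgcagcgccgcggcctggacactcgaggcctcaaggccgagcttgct
HNRNPUL2: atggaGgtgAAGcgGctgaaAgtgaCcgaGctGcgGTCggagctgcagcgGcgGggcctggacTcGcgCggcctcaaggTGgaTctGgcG
The longest identical run was 15 bases, against 174 between HNRNPA1 and HNRNPA1L2.

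With TMM, RBM3 rose more than any other of the 58 genes. Its protein and that of its paralog CIRBP are small glycine-rich RNA-binding proteins that are known to be induced by mild cold. RBM3 (ENSG00000102317, chromosome X, 48574449 to 48579066, GRCh38, 7 exons) measured 177, 171 and 176 CPM in siControl and 571, 557 and 571 CPM in siSON, a 3.24-fold rise with little spread in either group (log2 fold change 1.70, SE 0.046, adjusted p = 6.78e-10). CIRBP, which is not one of the 65 genes by its name, moved the other way, from 137, 129 and 128 CPM in siControl to 66.9, 67.1 and 66.3 CPM in siSON (log2 fold change -0.98, SE 0.053, adjusted p = 3.38e-08). The labels' protocols give the same growth temperature for all 6 libraries, and whether temperature had a part in these values was not tested. The first 90 coding bases of both (GENCODE release 29) are shown because no other compared pair separated as far; capitals mark the 28 bases at which CIRBP differs from RBM3.
RBM3: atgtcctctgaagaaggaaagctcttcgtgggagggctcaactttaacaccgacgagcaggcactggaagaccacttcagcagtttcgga
CIRBP: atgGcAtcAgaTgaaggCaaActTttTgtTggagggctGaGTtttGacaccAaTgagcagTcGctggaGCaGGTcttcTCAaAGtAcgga
Over the whole coding sequence 71.9% of 456 aligned bases were identical, with no identical run longer than 11 bases, against 198 between RBM4 and RBM4B. The RefSeq promoter windows of both genes (GRCh38.p14, 250 bases before to 50 after the annotated start, both on the plus strand) follow for the same pair, with the motifs CCAAT and GGGCGG in capitals on either strand; in CIRBP copies of GGGCGG on the other strand run into each other.
RBM3, chrX:48574234-48574533: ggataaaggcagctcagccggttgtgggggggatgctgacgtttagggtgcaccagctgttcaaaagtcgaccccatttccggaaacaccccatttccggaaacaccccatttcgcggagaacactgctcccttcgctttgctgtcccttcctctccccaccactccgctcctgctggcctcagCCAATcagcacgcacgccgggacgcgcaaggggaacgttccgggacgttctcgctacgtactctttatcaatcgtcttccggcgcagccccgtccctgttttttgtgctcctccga
CIRBP, chr19:1269082-1269381: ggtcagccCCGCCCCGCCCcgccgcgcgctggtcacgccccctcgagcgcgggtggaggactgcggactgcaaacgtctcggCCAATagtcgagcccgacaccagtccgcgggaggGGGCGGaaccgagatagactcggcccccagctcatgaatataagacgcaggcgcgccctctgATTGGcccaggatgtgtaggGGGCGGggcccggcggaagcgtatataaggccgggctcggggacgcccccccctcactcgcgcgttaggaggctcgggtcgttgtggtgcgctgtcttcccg
RBM3 holds CCAAT and no GGGCGG in this window, and CIRBP holds both. CCAAT was found in 35.7% and GGGCGG in 44.6% of 27305 RefSeq windows of this length, so neither is rare.

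The nucleolar RBM proteins moved in both directions. RBM19, which is needed for processing of ribosomal RNA (chromosome 12, 113816738 to 113966371, 25 exons), measured 59.8, 50.4 and 53 CPM in siControl and 192, 158 and 169 CPM in siSON. This 3.18-fold rise was nearly as large as that of RBM3, with wider spread between libraries (log2 fold change 1.67, SE 0.085, adjusted p = 2.10e-08). With cyclic loess RBM19 rose more than RBM3 (1.43 against 1.34). RBM28, a protein of the large ribosomal subunit's assembly, measured 43.3, 39.1 and 39.4 CPM in siControl and 60.4, 54.3 and 55.9 CPM in siSON (log2 fold change 0.49, SE 0.069, adjusted p = 6.46e-05). RBM34 was low, at 1.07, 1.34 and 0.937 CPM in siControl and 0.724, 0.698 and 0.649 CPM in siSON, and was called lower (-0.69, adjusted p = 0.0242). It lost that call without siControl replicate 2, siSON replicate 2 or siSON replicate 3 (adjusted p = 0.101, 0.0543 and 0.0680), with DESeq2 (adjusted p = 0.0713) and with cyclic loess (-0.21, adjusted p = 0.411). RBM34 overlaps ARID4B on the same strand, so its count is uncertain.

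RBM proteins that join the spliceosome itself included 4 genes called higher under every scaling. RBM8A, also called Y14, is a core subunit of the exon junction complex that marks spliced mRNA, and it measured 95.3, 84.1 and 89.6 CPM in siControl and 160.4, 157 and 155 CPM in siSON (log2 fold change 0.81, SE 0.058, adjusted p = 2.55e-07). RBM22, which sits at the catalytic centre of the spliceosome and contacts U6 RNA, measured 43.9, 44.5 and 42.6 CPM in siControl and 80.2, 75.7 and 71.9 CPM in siSON (log2 fold change 0.80, SE 0.061, adjusted p = 4.46e-07). RBM42, a protein of the tri-snRNP, measured 58.9, 57.9 and 57.4 CPM in siControl and 106, 101 and 107 CPM in siSON (log2 fold change 0.85, SE 0.053, adjusted p = 9.00e-08). RBM48, which acts in splicing of minor (U12-type) introns, measured 13.5, 12.6 and 11.9 CPM in siControl and 24.9, 21.5 and 19.1 CPM in siSON (log2 fold change 0.79, SE 0.10, adjusted p = 3.86e-05). All siSON libraries lay above all siControl libraries for each of them, with folds of 1.76, 1.74, 1.81 and 1.73.

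RBM41, another minor spliceosome protein, moved opposite to RBM48. It measured 14.4, 15 and 14.8 CPM in siControl and 9.77, 10.4 and 8.56 CPM in siSON, with 64.9% remaining (log2 fold change -0.62, SE 0.094, adjusted p = 1.09e-04). RBM17, also called SPF45, which takes part in recognition of the branch site and 3′ splice site, fell more mildly, from 79, 72.4 and 71.6 CPM to 65.5, 61.5 and 57.2 CPM (log2 fold change -0.28, SE 0.068, adjusted p = 0.00347). RBM25, which binds exonic enhancers and regulates apoptotic splice forms, ranged widely within groups, at 161, 134 and 114 CPM in siControl and 192, 161 and 121 CPM in siSON. Replicate 1 was highest and replicate 3 lowest in each group, the groups overlapped, and RBM25 was not called (log2 fold change 0.21, SE 0.17, adjusted p = 0.277); without siSON replicate 3 it was (0.38, adjusted p = 0.0422).

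RBM39, which resembles U2AF2 and works with it at the 3′ splice site, measured 179, 177 and 169.8 CPM in siControl and 221, 201 and 178 CPM in siSON. It was called higher although the groups overlapped (log2 fold change 0.19, SE 0.072, adjusted p = 0.0354), and the call was lost under 9 of 15 alternatives, including omission of any siControl library or of siSON replicate 1 or 2 (adjusted p = 0.0804, 0.101, 0.130, 0.0799 and 0.0702). Without replicate 1 of both groups it was not called (0.10, adjusted p = 0.116). Its value was -0.0087 with library size alone and -0.13 with cyclic loess. RBM23, the closest relative of RBM39, was called higher under each scaling, from 66, 70.2 and 72 CPM to 99.954, 104 and 102 CPM (0.55, adjusted p = 4.02e-06).

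The related splicing regulators RBM5, RBM6 and RBM10, which act on exons of growth and cell death genes, did not move together. RBM5 and RBM6 lie next to each other on chromosome 3, overlap each other on the same strand, and were both called higher with TMM. RBM6 measured 64.7, 61.1 and 53 CPM in siControl and 99.3, 87.4 and 78.1 CPM in siSON (log2 fold change 0.57, SE 0.10, adjusted p = 2.79e-04). RBM5 measured 114, 111 and 105 CPM in siControl and 152, 140.0 and 133 CPM in siSON (log2 fold change 0.36, SE 0.062, adjusted p = 2.84e-04), a call not made with cyclic loess (0.094, adjusted p = 0.212). RBM10, on the X chromosome, measured 65.4, 68.2 and 66.5 CPM in siControl and 59.2, 60.4 and 54.6 CPM in siSON and was called lower (log2 fold change -0.20, SE 0.060, adjusted p = 0.0107). Without siSON replicate 3, its lowest library, RBM10 was not called (-0.15, adjusted p = 0.0685).

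RBM15 and RBM15B guide the RNA N6-methyladenosine (m6A) writer to its sites, and they moved apart. RBM15 measured 18.6, 17.5 and 17.1 CPM in siControl and 24.3, 23.7 and 24.3 CPM in siSON (log2 fold change 0.44, SE 0.072, adjusted p = 1.96e-04). RBM15B, an intronless gene that overlaps DCAF1 on the other strand, measured 132, 134 and 139 CPM in siControl and 122, 119 and 123 CPM in siSON (log2 fold change -0.16, SE 0.050, adjusted p = 0.0143). The RBM15B call was lost without siControl replicate 3 or siSON replicate 2 (adjusted p = 0.0508 and 0.0796). RBM33, which is linked to m6A removal and to nuclear export of RNA, rose from 47.9, 46.7 and 46.9 CPM to 75.7, 77.7 and 78.1 CPM, with close replicates in both groups (log2 fold change 0.71, SE 0.054, adjusted p = 4.11e-07).

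RBM14, RBM4 and RBM4B lie in 1 stretch of chromosome 11 and gave 3 different outcomes. RBM14, a paraspeckle protein and transcriptional coactivator (chromosome 11, 66616582 to 66627347), measured 51, 50.9 and 44.6 CPM in siControl and 114, 95 and 97 CPM in siSON, a 2.09-fold rise (log2 fold change 1.06, SE 0.083, adjusted p = 5.27e-07). Without siControl replicate 3, siSON replicate 1 or replicate 1 of both groups it remained called, at log2 fold changes of 0.99, 0.99 and 0.99, just under 2-fold. With library size alone and with cyclic loess it was called at 0.87. RBM4, which regulates alternative splicing and translation and begins 11269 bases downstream on the same strand (chromosome 11, 66638617 to 66668374), measured 10.5, 12.1 and 11.8 CPM in siControl and 9.01, 9.93 and 8.50 CPM in siSON and was called lower (log2 fold change -0.33, SE 0.10, adjusted p = 0.0120). Without siSON replicate 3 the RBM4 call was lost (-0.27, adjusted p = 0.0569), as it was with cyclic loess (-0.12, adjusted p = 0.286). RBM4B, on the opposite strand and overlapping the end of RBM4, measured 19, 22.3 and 21.3 CPM in siControl and 23.6, 21.9 and 23.3 CPM in siSON and was not called (0.14, adjusted p = 0.149). The readthrough gene RBM14-RBM4 shares sequence with both of its namesakes and was low, at 0.444, 0.582 and 0.495 CPM in siControl and 0.258, 0.485 and 0.177 CPM in siSON. It was not called (-0.72, adjusted p = 0.125), except without siSON replicate 2 (-1.19, adjusted p = 0.0304). RBM4 and RBM4B are also alike in sequence; the first 90 coding bases of both (GENCODE release 29) are printed because they differ only at G27T, in capitals, counted from the start codon of RBM4.
RBM4: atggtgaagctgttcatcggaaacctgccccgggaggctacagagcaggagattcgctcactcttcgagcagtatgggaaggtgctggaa
RBM4B: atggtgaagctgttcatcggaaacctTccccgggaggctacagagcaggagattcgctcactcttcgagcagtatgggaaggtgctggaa
Over the coding sequence 87.5% of 1074 aligned bases were identical, with 1 run of 198 identical bases. Reads of such a run cannot be assigned by sequence, and how they and reads of the overlaps were counted is not given in the sources used here, so the counts of these genes are uncertain.

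Among RBM proteins of RNA decay and turnover, RBM27 rose, while the call of its paralog RBM26 depended on the scaling. Both belong to a nuclear complex that hands polyadenylated RNA to the exosome. RBM27 measured 11.2, 11.9 and 11.4 CPM in siControl and 20.5, 22.4 and 21.6 CPM in siSON (log2 fold change 0.90, SE 0.079, adjusted p = 1.27e-06). RBM26 measured 59.8, 59.8 and 54.8 CPM in siControl and 54.3, 54.9 and 51 CPM in siSON and was not called with TMM (-0.12, adjusted p = 0.101). RBM26 was called lower with library size alone (-0.32, adjusted p = 0.00102), with cyclic loess (-0.28, adjusted p = 0.00279) and with a mean count of at least 50 (-0.18, adjusted p = 0.0243). RBM7, the RNA-binding subunit of the nuclear exosome targeting complex, measured 24.8, 21.7 and 24.7 CPM in siControl and 25.3, 26.1 and 26.3 CPM in siSON, and although every siSON library lay above siControl it was not called (0.12, adjusted p = 0.165).

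RBM24 and RBM38, paralogs that bind similar RNA and are known from muscle differentiation and the p53 response, both fell. RBM24 (chromosome 6, 17281346 to 17293875, 4 exons) measured 36.6, 39.3 and 40.6 CPM in siControl and 13.2, 17.1 and 15.7 CPM in siSON, with 39.4% remaining (log2 fold change -1.35, SE 0.10, adjusted p = 2.86e-07). RBM38 measured 22, 22.6 and 25.3 CPM in siControl and 18.6, 18.3 and 20.2 CPM in siSON, a milder fall to 81.7% (log2 fold change -0.29, SE 0.082, adjusted p = 0.00782). RBM20, the regulator of titin splicing in heart muscle, was present at a low level and was called higher, from 1.30, 1.51 and 1.30 CPM to 2.22, 2.37 and 1.77 CPM (0.63, adjusted p = 0.0103), but not without replicate 1 of both groups (adjusted p = 0.0515) or with library size alone (adjusted p = 0.0583). RBM47, a cofactor of apolipoprotein B mRNA editing, rose from 11.8, 13.7 and 13.3 CPM to 21.7, 20.1 and 21.9 CPM (log2 fold change 0.71, SE 0.086, adjusted p = 1.81e-05).

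Of the RBM genes whose molecular roles are less well defined, RBM18 and RBM45 were called higher, at 0.44 and 0.43, the latter not with library size alone. RBM12 measured 75.2, 78.8 and 78 CPM in siControl and 89, 92.8 and 93.3 CPM in siSON and was called higher with TMM (0.25, adjusted p = 0.00145) and under neither other scaling; it overlaps CPNE1. RBM12B was called lower (-0.26, adjusted p = 0.0108). RBM43 at -0.14 (adjusted p = 0.419) was not called. RBM44, at 0.301, 0.220 and 0.321 CPM in siControl and 0.414, 0.504 and 0.354 CPM in siSON, was not called with TMM (0.58, adjusted p = 0.156) but was called higher with cyclic loess (1.11, adjusted p = 0.00756).

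**Figure D4:**
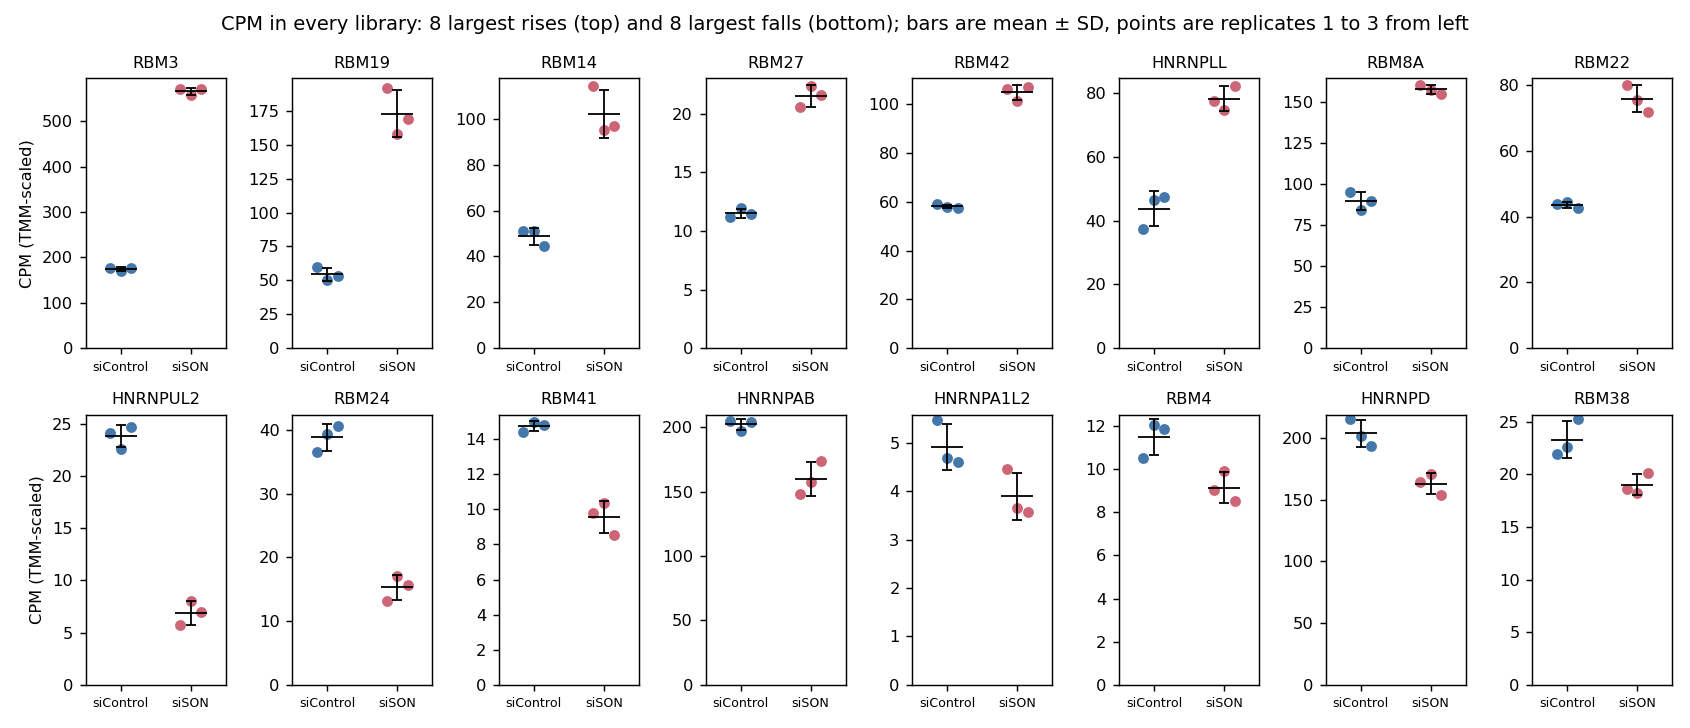
CPM (y axis from 0, TMM-scaled) in each library of siControl and siSON for the 8 genes with the largest rises (top) and the 8 with the largest falls (bottom) among called genes with mean log2 CPM of at least 1 and groups that do not overlap; points are libraries and bars mean ± SD (n = 3). RBM3 stays within 171 to 177 CPM in siControl and 557 to 571 CPM in siSON, while HNRNPA1L2 and RBM38 show groups that only just separate.

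The 7 genes not tested had too few counts. HNRNPCL2, HNRNPCL3 and HNRNPCL4, relatives of HNRNPC, the germ cell gene RBM46 and RBM11, a tissue-restricted paralog of RBM7, had 0 counts in all 6 libraries, which allows a level of up to 0.0430 to 0.0550 CPM depending on the library. HNRNPCL1 had 0 to 2 counts per library and HNRNPUL2-BSCL2 had 3 to 13.

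Within-library ratios between paralogs do not depend on a scaling factor common to all genes of a library, as with TMM or library size alone. They were therefore compared for 24 pairs. Cyclic loess adjusts genes by their level and can change such ratios, which were not computed with it. In 23 pairs both genes were tested; the exact permutation test (2-sided) of 3 libraries against 3 cannot give a p below 0.1, and its lowest value adjusted over the 23 pairs was 0.128, so no pair could pass 0.05. The groups did not overlap in 18 of the 23 pairs, and 4 ratios moved by at least 2-fold. Of all single genes tested, 75.1% had groups that did not overlap, and ratios of other gene pairs were not computed as a background. RBM3 over CIRBP had a mean log2 ratio of 0.41 ± 0.044 in siControl and 3.08 ± 0.027 in siSON (SD, n = 3), a shift of 2.67. HNRNPUL1 over HNRNPUL2 went from 4.25 ± 0.043 to 6.25 ± 0.28, a shift of 2.0. RBM24 over RBM38 went from 0.74 ± 0.056 to -0.32 ± 0.21, and RBM26 over RBM27 from 2.33 ± 0.082 to 1.31 ± 0.084, so the balance passed toward RBM38 and toward RBM27 in every siSON library.

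Smaller shifts without overlap included 0.77 for RBM6 over RBM10 and 0.56 for RBM5 over RBM10. HNRNPC gained on its relative RALY by 0.74, and RBM15 on RBM15B by 0.60. The log2 ratio shifted by -0.53 for HNRNPL over HNRNPLL, by -0.47 for RBM4 over RBM4B and by -0.40 for HNRNPR over SYNCRIP. The ratios of HNRNPA1 to HNRNPA2B1, of HNRNPH1 to HNRNPF, HNRNPH2 and HNRNPH3, and of HNRNPD to HNRNPAB had groups that overlapped.

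**Figure D5:**
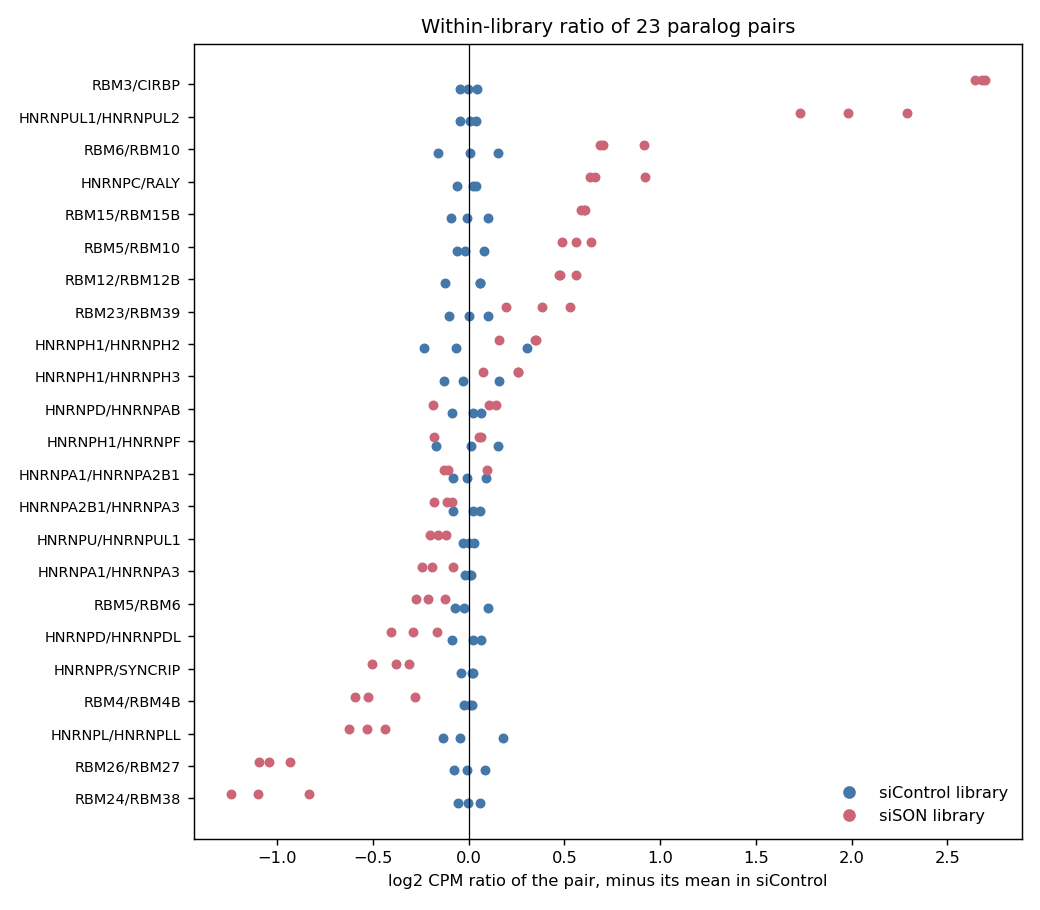
Within-library log2 ratio of the CPM of 23 paralog pairs (rows), each minus the pair's mean in siControl (x axis), with 1 point per library. RBM3/CIRBP lies farthest to the right, shifted by 2.67 in siSON, followed by HNRNPUL1/HNRNPUL2 at 2.0, and RBM24/RBM38 lies farthest to the left at -1.06; the 5 pairs whose groups overlap are all of hnRNP genes.

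Genes that share a complex or family with the hnRNP and RBM genes were taken from a list of 60 genes (61 rows, since MATR3 has 2). Of 57 rows tested, 46 were called, 26 higher and 20 lower, beside 71.7% of all genes. The 5 with the smallest adjusted p were PTBP2, DHX15, PCBP4, SF3B1 and CIRBP. PTBP2, the neuronal paralog of the polypyrimidine tract-binding protein PTBP1, rose from 13.4 ± 1.79 to 152 ± 7.0035 CPM (3.505, adjusted p = 6.78e-10). Under the same test PTBP1 fell from 294 ± 13.9 to 162 ± 2.80 CPM (-0.86, adjusted p = 6.66e-08). PCBP4, of the poly(C)-binding group that includes HNRNPK, fell from 53.3 ± 1.25 to 15.4 ± 1.61 CPM (-1.79, adjusted p = 1.25e-08).

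In the exon junction complex, RBM8A's rise went with that of CASC3, from 61.7 ± 0.376 to 115 ± 0.456 CPM (0.90), and of MAGOH, from 20.6 ± 0.913 to 29.9 ± 2.21 CPM (0.54), while EIF4A3 and MAGOHB were not called (0.10 and 0.12). All 6 other subunits listed for the m6A writer of RBM15 and RBM15B were called, 3 higher and 3 lower, beside 71.7% called among all genes. The catalytic subunit METTL3 fell from 34.3 ± 1.54 to 15.3 ± 1.46 CPM (-1.17), METTL14 by a smaller amount (-0.26, adjusted p = 0.0120, and 0.0591 without siControl replicate 3), and WTAP likewise (-0.29). VIRMA rose from 68.2 ± 1.30 to 111 ± 7.86 CPM (0.70), as did CBLL1 (0.58) and, except with cyclic loess, ZC3H13 (0.36).

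Among partners of RBM39, RBM17, RBM5 and RBM10 at the branch site and 3′ splice site, SF3B1 rose from 314 ± 5.90 to 611 ± 32.1 CPM (0.96) and the helicase DHX15 from 146 ± 2.64 to 324 ± 4.09 CPM (1.15). CHERP fell, as RBM17 did, from 52.8 ± 2.05 to 33.9 ± 1.56 CPM (-0.64), while U2SURP was higher (0.38), except with cyclic loess. U2AF2 and SF1 were called higher with TMM and library size alone but not with cyclic loess (0.40 and 0.41 with TMM). SUGP1 was at the threshold (0.16, adjusted p = 0.0466) and lost its call under 11 of 15 alternatives, among them omission of replicate 1 of both groups (0.12, adjusted p = 0.0987). The U2AF1 row held only 0.343 ± 0.0602 CPM in siControl and has a near-identical annotated copy, so its value is uncertain. ZCCHC8 and MTREX, the other subunits of RBM7's complex, were called in opposite directions (-0.19 and 0.24); ZCCHC8 lost its call under 8 of 15 alternatives, and MTREX without siControl replicate 1 (adjusted p = 0.0503), with library size alone and with cyclic loess.

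Gene structure was compared as a description. Transcripts of the hnRNP and RBM genes called higher and lower had nearly the same median GC content, 45.9% and 45.7%, whereas all protein-coding genes called higher had 47.4% and those called lower 53.7%. Across the 58 genes the log2 fold change showed almost no relation to GC content (Pearson r = 0.0019, Spearman rho = 0.011), while across 13003 protein-coding genes r was -0.26; these are correlations across genes of the same libraries, which are not independent replicates. With the number of exons r was 0.25 and rho 0.31 across the 58 genes, against 0.0072 and 0.046 across 13008 protein-coding genes. With the median intron length r was -0.052 and rho 0.037 across 55 genes, against 0.080 and 0.25 across 12699 protein-coding genes. This length nevertheless had a median of 1906 bases for the hnRNP and RBM genes called higher and 1243 for those called lower. For all protein-coding genes called higher and lower it was 2188.5 and 1290.5. The median intron of hnRNP genes was short, with a median of 679 bases against 1914 for RBM genes and 1864 for all protein-coding genes tested. Of the 3 tested single-exon genes, HNRNPA0 was called higher with TMM, and RBM15B and HNRNPA1L2 lower. RefSeq promoter windows of 300 bases matched 58 of the 65 genes: 36 held CCAAT and 38 held GGGCGG on either strand (62.1% and 65.5%), against 35.7% and 44.6% of all 27305 windows. The genes matched are not the same as the 58 tested: HNRNPCL1 and RBM11, which were not tested, are among them and HNRNPA1 is not. RBM14 and RBM14-RBM4 have the same window, which was counted for each. The windows of the 58 genes matched were richer in GC, with a median of 63.7% against 58.3%. They were not compared with windows of equal GC content.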

How the data were processed

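The deposited table of the authors holds raw counts of reads for each gene in 6 RNA-seq libraries (3 siControl, 3 siSON). RNA came from a Monarch total RNA kit, and sequencing libraries from the Nugen kit for mRNA (Universal Plus), per the labels' protocols. Per the submitters' processing notes, the tools were cutadapt 1.16, STAR 2.5.2a, featureCounts 1.6.2 and DESeq2 1.28.1 with the genome build hg38; the strand setting and the handling of multi-mapping reads are not given in the sources used here. All 58735 gene identifiers matched GENCODE release 29 (GRCh38), as did 99.5% of names, and positions, exons, overlaps and coding sequences come from it. Promoter windows come from RefSeq (GRCh38.p14). Some sequences and overlaps are not reported here.

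The test used edgeR 4.0.16 in R 4.3.3: filterByExpr (minimum count 10), TMM scaling, a robust quasi-likelihood fit on the group alone over all 6 libraries, and Benjamini-Hochberg adjustment over the 16591 genes kept. Unless another tool or alternative is named, every adjusted p for a gene is from this fit. Under a named alternative it is from a new fit, adjusted over the genes kept there. SE was taken from the fit as the size of the log2 fold change over the root of F. CPM uses TMM-scaled library sizes, and CPM per kb divides it by the union of a gene's exons. Paralog ratios are differences of log2 CPM (prior count 2) within a library, with a 2-sided exact permutation test. Library totals of 54572365 to 69764836 counts set the precision. The scripts were tested on simulated counts with known changes. Alternatives were DESeq2 1.42.0, limma-voom and cyclic loess (limma 3.58.1), relative log expression (RLE) factors, library size alone, no filter, a mean count of at least 50, a test against a 1.5-fold change, a replicate block, a prior count of 0.5 and omission of each library; omission of replicate 1 of both groups was chosen after the data were seen.

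Genes given library by library are, among called genes with mean log2 CPM of at least 1 and groups that do not overlap, the 8 largest rises and 8 largest falls, the 5 highest levels per length in siControl, and a list of well-known genes; any other of the 65 genes may be named by role. Partner genes named are the 5 with the smallest adjusted p and those of a complex described; PTBP1 was added as the paralog of PTBP2, with its value known. The genes, lists and pairs were chosen with earlier results of these data known.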

Additional observations from a re-analysis of the deposited data

How the results depend on the processing

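The count of the 58 genes called changed, 43, stayed between 38 and 47 under every alternative but the test against a 1.5-fold change, which called 12 (2 hnRNP and 10 RBM genes), with 17 of the partner genes and 6126 of all genes; that test asks for a larger change by construction. Omitting each library in turn gave 40 to 42 calls. Of the 43 calls, 25 held under all 15 other alternatives and 18 were lost or turned under some, 3 of them (HNRNPA2B1, HNRNPUL1 and HNRNPC, with cyclic loess) to a call in the other direction; 11 genes not called were called under some alternative. Most of these losses came with library size alone or cyclic loess, under which 19 of 38 and 20 of 40 calls were higher, against 30 of 43 with TMM.

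Among the 58 genes and the partner genes whose values are given, the log2 fold changes that changed sign with library size alone were -0.066 for HNRNPA1, -0.021 for HNRNPA2B1, -0.15 for HNRNPU, -0.0061 for HNRNPH1, -0.20 for HNRNPH3, -0.0087 for RBM39, -0.072 for RBM7, -0.060 for RBM4B, -0.097 for EIF4A3, -0.077 for MAGOHB and -0.033 for SUGP1. With cyclic loess they were -0.30 for HNRNPA1, -0.085 for HNRNPK, -0.24 for HNRNPA2B1, -0.18 for HNRNPUL1, -0.11 for HNRNPC, -0.35 for HNRNPU, -0.18 for HNRNPH1, -0.035 for HNRNPA3, -0.088 for HNRNPA0, -0.10 for HNRNPF, -0.30 for HNRNPH3, -0.081 for RBM25, -0.13 for RBM39, 0.051 for RBM43, 0.25 for HNRNPA1P48, -0.094 for EIF4A3, -0.0022 for MTREX and 0.26 for U2AF1. With a mean count of at least 50 they were -0.011 for HNRNPU and -0.055 for HNRNPH3. Omission of a library turned genes that were not called and lay near 0: HNRNPDL to 0.032 and 0.075 (without siControl replicate 1 and siSON replicate 3), HNRNPR to 0.035 and RBM43 to 0.046 (without siSON replicate 1), HNRNPA1P48 to 0.048 (without siSON replicate 3), U2AF1 to 0.056 (without siSON replicate 2) and HNRNPH3 to between -0.043 and -0.016 (siControl replicate 2, at -0.029, or 3, or siSON replicate 1), and to -0.0040 without replicate 1 of both groups. Over the omissions of single libraries HNRNPR ranged from -0.052 to 0.035, RBM43 from -0.27 to 0.046, HNRNPH3 from -0.043 to 0.038, HNRNPA1P48 from -0.16 to 0.048 and U2AF1 from -0.79 to 0.056. Beyond their construction, the cause of these differences was not tested.

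The replicate numbers are shared by the groups without a stated meaning. Deviations of same-numbered libraries from their group means correlated at 0.194, 0.046 and 0.118, and those of differently numbered libraries at -0.138 to 0.029. Every same-numbered value was thus above every other, but not all passed 0.1, and the main fit did not take the numbers as pairs. Whether they mark pairs was not tested, so a replicate effect shared by the groups may remain in that fit. With the replicate block 47 of the 58 genes were called (33 higher, 14 lower), 16 hnRNP and 31 RBM, 49 partner genes and 12313 genes in all; HNRNPA1, HNRNPH1, RBM25 and RBM26 gained a call and no called gene lost one. SON measured -2.14 with the block as without it. The prior count of 0.5 left 18 pairs without overlap. Depth limits RBM44, RBM14-RBM4 and RBM34, which lie at or below 1.34 CPM.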

Other observations

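Rows named after the hnRNP and RBM genes but annotated as pseudogenes numbered 139, of which 64 had any count, 13 were tested and none was called by edgeR's quasi-likelihood test. The 74 named after HNRNPA1 together held 0.311% to 0.430% of the HNRNPA1 counts in each library. Of 4 antisense or divergent rows named after these genes, 2 were tested. RBM26-AS1, on the strand opposite RBM26, measured 1.23, 1.48 and 1.04 CPM in siControl and 0.534, 0.873 and 0.964 CPM in siSON (log2 fold change -0.67, adjusted p = 0.0459), and reads of RBM26 and its antisense row cannot be told apart without strand.

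Replicate 1 was the highest library in both groups for 23 of the 58 genes tested (39.7%), against 19.95% of all genes tested. RBM25 measured 161, 134 and 114 CPM in siControl and 192, 161 and 121 CPM in siSON, and HNRNPH1, HNRNPDL and RBM6 had the same highest library. What the replicate numbers stand for is not given in the sources used here.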
